A study of Mus musculus with 18 samples.

Results

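The 10 genes described here encode the enzymes that lengthen and desaturate long fatty acids in the mouse: the 7 elongases Elovl1 to Elovl7 and the 3 fatty acid desaturases Fads1, Fads2 and Fads3. They are 10 of 19937 genes with a single-symbol probe set on the array, and each was measured by 1 probe set. They were taken from earlier results of the same data, in which Elovl3 had the largest fall of any gene in brown fat. The difference between FXR and control brown fat therefore chose the family and is given below for its members as a description, with no test.

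An elongase joins a malonyl unit to an acyl-CoA in the endoplasmic reticulum, and a reductase, a dehydratase and a second reductase complete each cycle. The desaturases add double bonds with electrons from cytochrome b5, and elongation and desaturation alternate on the way from the dietary essential fatty acids to the highly unsaturated ones. In brown fat, Elovl3 is known as a gene that rises when mice are kept in the cold, and Elovl6, a target of the lipogenic factor SREBP-1c, turns newly made palmitate into stearate.

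RNA came from male C57BL/6J mice, 10 weeks old and on chow. The FXR mice overexpressed human FXR, the bile acid receptor, in adipose tissue, and the controls were wild type. There were 5 arrays of brown adipose tissue (BAT) of FXR mice, 5 of BAT of control mice, 4 of white adipose tissue (WAT) of FXR mice and 4 of WAT of control mice. The promoter of the transgene, the white depot and any sharing of mice between the tissues are not given in the sources used here, and 500 ng of RNA went into each labelling. For control BAT 2 and 4, the RNA protocol also mentions 6 weeks on the diet. The design text speaks of biological replicates.

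The values are intensities on a linear scale, analysed as log2(intensity + 1). Array medians were 93.1 to 99.9 in BAT and 60.5 to 61.7 in WAT, so the tissues were not on 1 common distribution. An intensity within 1.5-fold of an array's 1% quantile is called dim here. That limit lay between 6.24 and 6.31 log2 units on BAT arrays and between 6.09 and 6.15 on WAT arrays, and changes of dim genes are compressed. The probe set of mouse Nr1h4, the FXR gene, was dim or close to it and does not measure the human transgene. In limma its difference between FXR and control was 0.05 log2 units in BAT, with adjusted p = 0.408, while in WAT it was 0.03, with adjusted p = 0.834. Ucp1, the uncoupling protein of brown fat, averaged intensities of 7017 ± 800 in FXR BAT and 9777 ± 841 in control BAT (SD, n = 5 each), and it was dim on all 8 WAT arrays. Skeletal muscle markers stood high on FXR BAT 1, 2 and 4, with a mean over 15 genes of 10.89, 10.29 and 10.88 log2 units. The mean was 6.98 and 8.60 on the other 2 FXR BAT arrays, against 6.80 to 8.98 on control BAT arrays.

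In BAT, Elovl3 was several-fold lower in FXR mice than in controls, Elovl6 was lower by a smaller amount, and Fads3 was higher, while Fads2 hardly differed. Elovl3 (chr19:46131897-46135694, GRCm38.p6), whose enzyme makes saturated and monounsaturated very long chains, had intensities of 230, 355, 85.6, 221 and 157 on FXR BAT arrays 1 to 5. On control BAT arrays 1 to 5 it had 1058, 1757, 1285, 970 and 754. The highest FXR array, FXR BAT 2, lay below the lowest control array, control BAT 5, and FXR BAT 3 was the lowest of all. The means were 7.57 ± 0.76 log2 units in FXR BAT and 10.13 ± 0.46 in control BAT (SD, n = 5 each). Their difference of -2.56 ± 0.34 (SE), 5.88-fold lower in FXR BAT, was the lowest among the 19937 genes. Without FXR BAT 1, 2 and 4, on which muscle markers were high, it was -3.26. The mean over 8 markers of brown adipocytes was lower in FXR BAT too, at 10.10 to 10.21 against 10.41 to 10.63 in control BAT. Of the 8, 6 were called lower and 1 higher, where 8.75% and 7.01% of all genes were. The higher one was Lhx8, at 0.21 (adjusted p = 0.0330, limma), a call lost in 5 of 10 fits that left out 1 array. Zic1 stood at 0.09 (adjusted p = 0.478, limma). The part of brown adipocytes in the Elovl3 values was not tested. Elovl3 is also known from sebaceous glands of skin, and the mean of 11 keratinocyte and sebocyte markers lay near the dim limit, at 6.30 to 6.40 in FXR BAT and 6.38 to 6.45 in control BAT. Of the 11, only the melanocortin receptor gene Mc5r passed, at -0.64 (adjusted p = 0.0234, limma). Its means were 6.69 in FXR BAT and 7.34 in control BAT. The other 10 did not pass, among them Trp63 at 0.15 (adjusted p = 0.192, limma) and Krt15 at 0.01 (adjusted p = 0.895). The part of such cells in the Elovl3 values was not tested.

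Elovl6 (chr3:129532386-129638495) had intensities of 3858, 3900, 2467, 3908 and 2899.5 on FXR BAT arrays 1 to 5. The 5 control BAT arrays had 5223, 4525, 5042, 4430 and 4910. All FXR arrays lay below all control arrays, and FXR BAT 3 was again the lowest. The difference in means was -0.52 ± 0.13 log2 units, or 1.44-fold lower in FXR BAT. It was -0.85 without FXR BAT 1, 2 and 4 and -0.28 after quantile normalization. Elovl4, which makes the very longest chains of retina and skin, was the third member without overlap, with 83.9 to 89.1 in FXR BAT and 90.7 to 102 in control BAT. Of all genes, 6.29% had arrays apart in that direction. Elovl4 ran from 6.41 to 6.49 log2 units in FXR BAT, near the dim limit. Elovl5, which lengthens polyunsaturated chains, had 1044 to 1476 in FXR BAT and 1162 to 1970 in control BAT, and the groups overlapped.

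Fads3, whose product is known as a desaturase of sphingoid bases, was the member furthest above control in BAT. The 3 Fads genes lie close together on chromosome 19, Fads3 at chr19:10040855-10060113, Fads2 at chr19:10062765-10101503 and Fads1 at chr19:10182877-10196874 (GRCm38.p6). Its intensities were 519, 387, 223, 407 and 394 on FXR BAT arrays 1 to 5, against 200, 186, 281, 204 and 198 on control BAT arrays 1 to 5. FXR BAT 3 and control BAT 3 crossed, so the groups overlapped, and the other 4 FXR arrays were above every control array. The difference was 0.81 ± 0.19 log2 units, or 1.76-fold, and 0.49 without FXR BAT 1, 2 and 4. Markers of fibroblasts and progenitors were higher in FXR BAT too, and all 10 passed the limma test. Their mean over 10 genes was 9.79 to 10.00 log2 units in FXR BAT and 8.45 to 9.00 in control BAT, and their summed intensity was 12774 to 15833 against 4918 to 7767. Macrophage markers had means of 7.94 to 8.15 in FXR BAT and 7.06 to 7.47 in control BAT. The part of these cells in the Fads3 values was not tested. In such bulk samples, fewer cells of a type and less RNA per cell cannot be told apart.

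The other members lay closer to control in BAT. Fads1 and Fads2, which carry out the 2 desaturations on the way to arachidonate, had differences of 0.14 ± 0.10 and -0.01 ± 0.07 log2 units. Fads2 had 167.5 to 217 in FXR BAT and 174 to 209 in control BAT, so the arrays overlapped almost fully. Elovl1, which makes saturated very long chains, had a difference of 0.21 ± 0.09, and Elovl7, another elongase of saturated chains, of 0.10 ± 0.04. Elovl7 was dim on 2 of the 5 control BAT arrays and near the dim limit on the other BAT arrays, and its difference was 0.02 with centring. Elovl2, an elongase of polyunsaturated chains, was dim on all 10 BAT arrays, and no fold is given. Because the family was chosen on this difference, nothing is read from the count of 3 members without overlap.

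**Figure D1:**
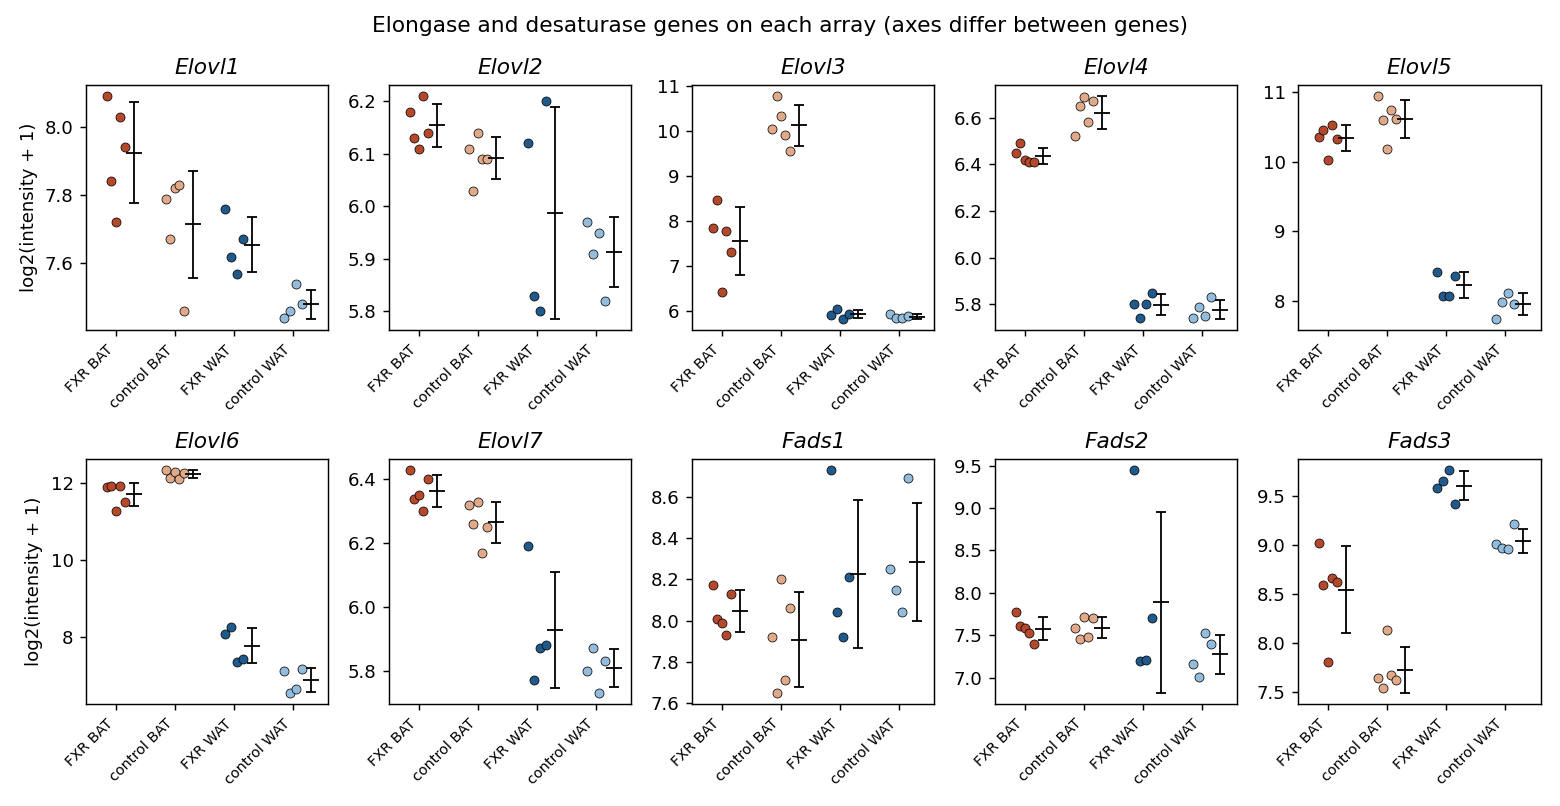
Each panel plots log2(intensity + 1) of 1 gene on every array, with FXR BAT, control BAT, FXR WAT and control WAT from left to right, and the bar beside each group is the mean ± SD. Axes differ between panels. Elovl3 ran from 6.44 to 8.47 in FXR BAT against 9.56 to 10.78 in control BAT, and all 8 WAT arrays stood near 6.

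In WAT, which the choice of genes did not use, Fads3, Elovl6 and Elovl1 had arrays apart and higher in FXR mice, and Fads3 alone passed the test. Fads3 had intensities of 762, 805, 873 and 682 on FXR WAT arrays 1 to 4. On control WAT arrays it had 515, 500, 497 and 597. Every FXR array was above every control array. Fads3 rose 1.48-fold, a difference of 0.56 ± 0.08 log2 units (SE), with adjusted p = 0.0232 (limma, 4 arrays per group, adjusted over all genes). That call was lost without control WAT 1 (adjusted p = 0.0725, limma), control WAT 2 (0.0780), FXR WAT 1 (0.0505) or FXR WAT 2 (0.0562), and in a joint fit of all 18 arrays (0.157), at differences of 0.54 to 0.57. The fibroblast markers had means of 9.04 to 9.50 in FXR WAT and 8.57 to 8.99 in control WAT, none of 10 passed the limma test (6 had an unadjusted p below 0.05), and their part in the Fads3 values was not tested.

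Elovl6 had intensities of 267, 304, 160 and 168 on FXR WAT arrays 1 to 4, against 136, 91.6, 99.0 and 141 on control WAT arrays. The groups did not overlap, but FXR WAT 3 and 4 lay close to control WAT 4. The difference was 0.91 ± 0.23 log2 units, or 1.88-fold higher in FXR WAT, and did not pass (adjusted p = 0.117, limma). In the joint fit of all 18 arrays, where the groups share 1 estimate of the spread, the adjusted p was 0.0220 (limma). Elovl1 was the third member whose arrays stood apart, with 189 to 216 in FXR WAT and 173 to 185.5 in control WAT, and its difference of 0.17 ± 0.05 did not pass (adjusted p = 0.125, limma).

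Fads2 in WAT rested on 1 array. Its intensities were 699, 145, 147 and 207 on FXR WAT arrays 1 to 4, against 142, 128, 183 and 168 on control WAT arrays. FXR WAT 1 was more than 3 times as bright as any other WAT array, and the remaining FXR arrays lay among the controls or just above them. The difference was 0.61 ± 0.45 log2 units (adjusted p = 0.673, limma), and 0.09 without FXR WAT 1. That array also held the highest Fads1 and Elovl7 values in WAT, 424 and 72.2, against at most 412 and 57.7 on the other 7. It differed in markers of the epididymis, the duct beside one of the white fat pads. Adam7 and Rnase9, genes of that duct, had intensities of 188 and 151 on FXR WAT 1 and at most 74.8 and 55.7 on the other WAT arrays. The mean of the 4 measured epididymis markers was 6.59 log2 units there, against 5.73 to 5.91 on the other FXR WAT arrays and 5.79 to 5.88 on control WAT arrays. Lcn8 and Lcn9 were dim on every WAT array. The part of this tissue in the Fads2 value was not tested.

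**Figure D2:**
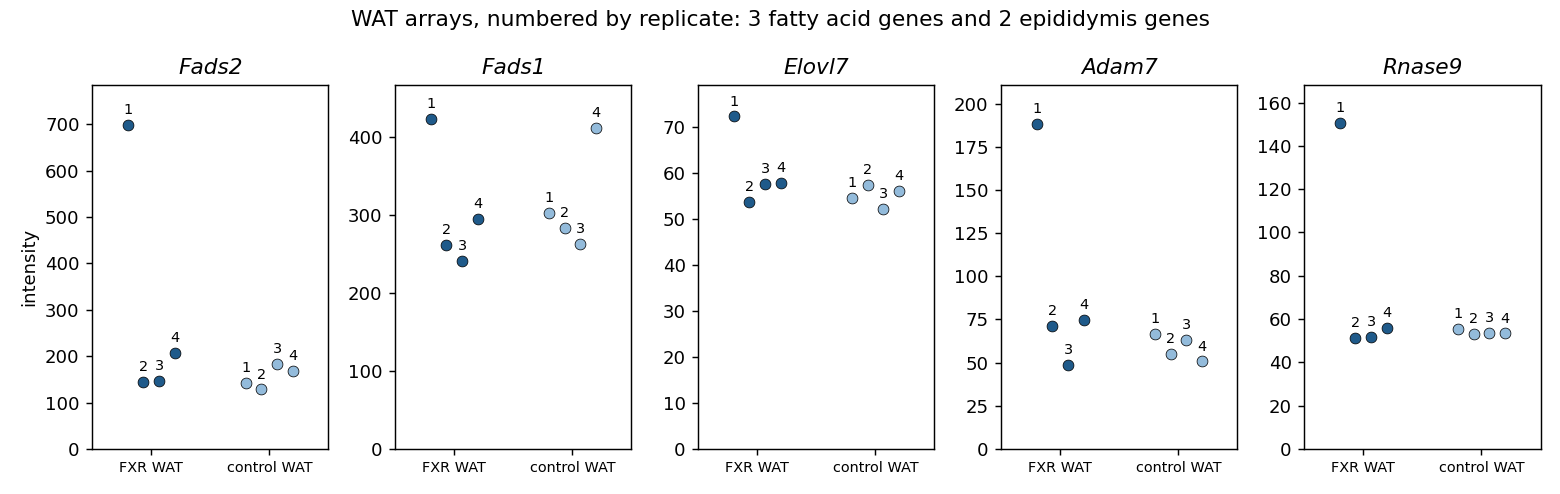
Intensities of Fads2, Fads1, Elovl7 and of the epididymis genes Adam7 and Rnase9 on the 4 FXR WAT arrays (left in each panel) and the 4 control WAT arrays (right), numbered by replicate. FXR WAT 1 was the highest array in all 5 panels, with 699 for Fads2, and control WAT 4 came close to it for Fads1 (412).

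The other members showed no readable difference in WAT. Elovl3 and Elovl4 were dim on all 8 arrays, so a fall of either could not have been seen there. Elovl2 and Elovl7 were dim on all control WAT arrays and on 2 and 3 of the 4 FXR WAT arrays. Elovl5 had a difference of 0.28 ± 0.10 log2 units (adjusted p = 0.280, limma) and Fads1 of -0.06 ± 0.19 (adjusted p = 0.948). Over the family, 1 of 10 members was called in WAT, where 1.33% of all genes were, and 4 had an unadjusted p below 0.05. The arrays of 3 members were apart and higher in FXR WAT, as those of 4.31% of all genes were. The median difference was 0.15 over the 10 members and 0.00 over all genes, and 9 of 10 differences were positive. Those 9 include the wholly or partly dim Elovl2, Elovl3, Elovl4 and Elovl7, and Fads2, which rested on 1 array. Nothing is read from that count of signs.

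**Figure D3:**
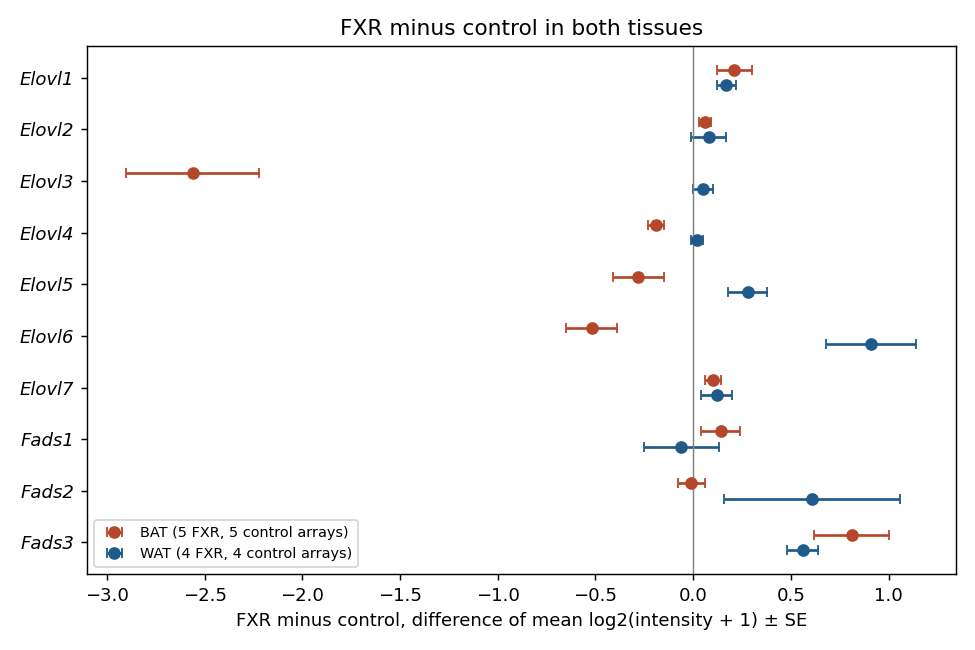
Difference of mean log2(intensity + 1) between FXR and control for each member, with its SE, in BAT (upper point, 5 and 5 arrays) and WAT (lower point, 4 and 4 arrays). Elovl3 stood at -2.56 in BAT and 0.05 in WAT, Elovl6 at -0.52 and 0.91, and Fads3 at 0.81 and 0.56.

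Between the tissues of control mice, Elovl6, Elovl3 and Elovl5 were higher in BAT under each scaling tried, and Fads3 and Fads1 were lower in BAT. In control BAT Elovl6 averaged 12.23 ± 0.10 log2 units (n = 5), against 6.86 ± 0.31 in control WAT (SD, n = 4). Its difference of 5.38 ± 0.12 (SE, adjusted p = 8.52e-12, limma), or 41.6-fold, was the 8th largest of 19937, and it kept that rank after quantile normalization, at 3.95. Elovl3 differed by 4.24 ± 0.19 (adjusted p = 1.26e-09, limma). It was dim on the 4 control WAT arrays, and against the dim limit it was at least 15.9-fold higher in BAT on the deposited scale. With the dim WAT values taken as they are, the difference was 18.9-fold as deposited, 12-fold with centring and 9.66-fold under quantile normalization. Elovl5 differed by 2.66 ± 0.13 (adjusted p = 2.53e-09, limma), or 6.34-fold, and by 1.14, or 2.2-fold, under quantile normalization. Fads3 was lower in BAT by 2.48-fold, with -1.31 ± 0.11 (adjusted p = 2.64e-07, limma), and ranked 48th from the lowest difference. Fads1 differed by -0.38 ± 0.14 (adjusted p = 0.0222, limma), and without control BAT 2 and 4 by -0.23 (adjusted p = 0.150). Its call was also lost without control BAT 2 (adjusted p = 0.0532, limma), control BAT 4 (0.0535) or control WAT 4 (0.0685).

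These differences carry a shift between the tissues' arrays that was not the same at all levels. The median gene stood 0.59 log2 units higher in control BAT, and among genes above the median level the median difference was 1.01. Of all genes, 96.8% were called. All 10 members were called too, 8 higher and 2 lower in BAT, where 94.8% of all genes were called higher and 1.98% lower. Elovl2 was dim on every array of both groups, so its call and its changes of sign compare background. Elovl7 was dim on the 4 control WAT arrays and on 2 of the 5 control BAT arrays, and Elovl4 on the 4 control WAT arrays. Relative to the median of all genes, which is lower than that of brighter genes, Elovl6 was higher by 4.79, Elovl3 by 3.65, Elovl5 by 2.07 and Elovl4 by 0.26. Fads3 stood at -1.90 and Fads1 at -0.97 relative to it. Elovl1, Elovl2 and Fads2, which were higher in BAT on the deposited scale, turned lower when each array was centred on its median and under quantile normalization. Elovl7 turned lower with centring and did not pass under quantile normalization. Over all genes the calls were 18897 higher and 395 lower as deposited, 7216 and 9324 with centring, and 5811 and 5736 under quantile normalization. The directions of Elovl3, Elovl4, Elovl5, Elovl6, Fads1 and Fads3 were the same under all 3 scalings.

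**Figure D4:**
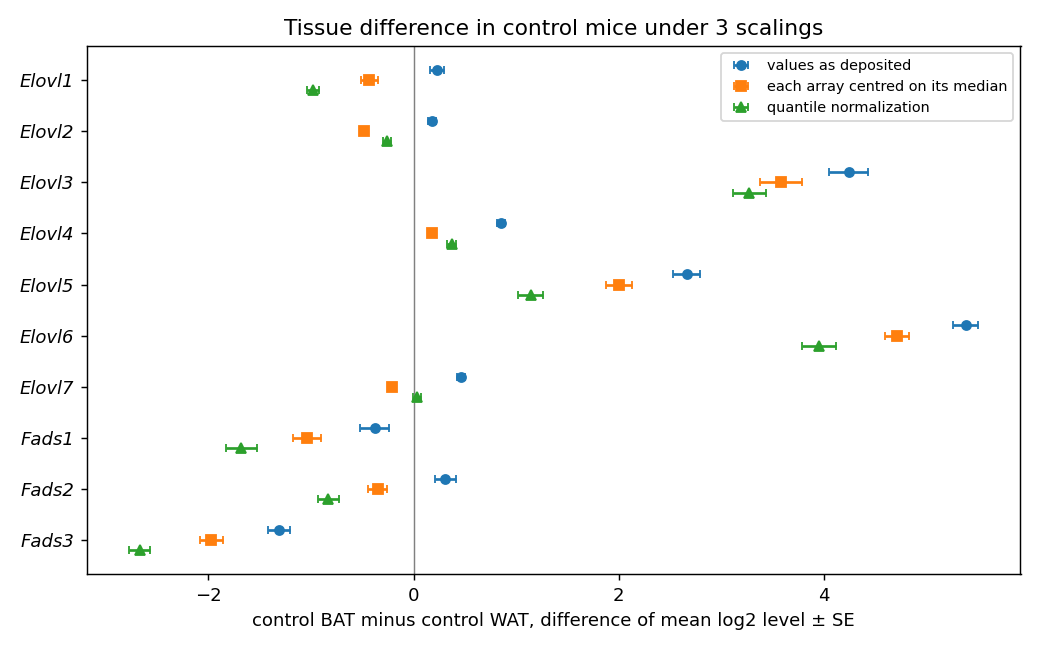
Control BAT minus control WAT for each member, as the difference of mean log2 level ± SE (5 and 4 arrays), for values as deposited (circles), each array centred on its median (squares) and quantile normalization (triangles). Elovl6, Elovl3 and Elovl5 stayed above 1 and Fads3 below -1 under each, while Elovl1, Elovl2 and Fads2 changed sign.

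The order of the 4 groups differed between members. Elovl3, Elovl4, Elovl5 and Elovl6 all ran, from high to low mean, control BAT, FXR BAT, FXR WAT and control WAT. For Elovl6 no neighbouring groups overlapped, and for Elovl3 and Elovl4 only the dim WAT groups did. Fads3 ran FXR WAT, control WAT, FXR BAT and control BAT, and only its WAT groups stood apart as neighbours. For Fads1, Fads2, Elovl2 and Elovl7 all neighbouring groups overlapped.

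Sequences before the start sites are shown for Elovl6, Elovl5 and Fads3, which carried large tissue differences. They are RefSeq sequence of the plus strand, the 250 bases before the listed start, and all 3 genes lie on that strand. Elovl6 is at chr3:129532136-129532385, Elovl5 at chr9:77917115-77917364 and Fads3 at chr19:10041298-10041547 (GRCm38.p6). Capitals mark matches to the motifs searched on both strands.
Elovl6: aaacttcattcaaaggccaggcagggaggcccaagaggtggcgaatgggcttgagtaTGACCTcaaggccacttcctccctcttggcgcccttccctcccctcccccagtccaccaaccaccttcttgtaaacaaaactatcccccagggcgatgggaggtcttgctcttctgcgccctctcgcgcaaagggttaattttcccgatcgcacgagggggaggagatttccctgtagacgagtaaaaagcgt
Elovl5: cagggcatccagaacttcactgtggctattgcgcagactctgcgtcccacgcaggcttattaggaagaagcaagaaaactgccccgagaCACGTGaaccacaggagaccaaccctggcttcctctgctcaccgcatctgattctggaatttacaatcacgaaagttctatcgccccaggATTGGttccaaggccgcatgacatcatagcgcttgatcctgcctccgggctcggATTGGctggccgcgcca
Fads3: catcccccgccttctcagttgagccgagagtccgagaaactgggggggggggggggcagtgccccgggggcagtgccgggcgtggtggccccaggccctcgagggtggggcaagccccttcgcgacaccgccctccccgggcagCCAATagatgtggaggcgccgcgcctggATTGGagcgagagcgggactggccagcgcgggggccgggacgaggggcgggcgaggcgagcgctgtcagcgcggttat
Elovl6 held the nuclear receptor half-site AGGTCA, read as TGACCT, 193 bases before its start, and Elovl1 held one at 95 bases. Of 32851 promoters of this length, 14.0% held a half-site. Elovl5 held the E-box CACGTG, found in 6.02%, at 161 bases before its start. The CCAAT box, found in 33.8%, matched in Elovl5, in Fads3 and in Elovl1. No match was found in Elovl2, Elovl4, Elovl7 or Fads2. The FXR inverted repeat AGGTCANTGACCT, which holds the half-site on both strands, matched in none of the 8 members with a listed promoter and in 0.00609% of all promoters. The direct repeats AGGTCANAGGTCA (0.0335%) and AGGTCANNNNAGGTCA (0.0152%), the cAMP response element TGACGTCA (1.55%) and the sterol response element TCACNCCAC (1.05%) had no match in them either. These are matches of letters in a short window and say nothing of binding.

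The partners of the elongases changed in part. In BAT, 7.01% of all genes were called higher and 8.75% lower. Of 7 genes for the other steps of the elongation cycle, 2 fell and 1 rose in FXR BAT. The dehydratase Hacd2 stood at -0.82 log2 units (adjusted p = 6.14e-05, limma) and the reductase Hsd17b12 at -0.51 (adjusted p = 0.00522), while the dehydratase-like Hacd4 rose by 0.37 (adjusted p = 0.000288). Hacd4 was near the dim limit, with means of 6.68 in FXR BAT and 6.31 in control BAT. With only genes above the median level, 0 of this list were called higher. In WAT none of the 7 passed limma, with 2 at an unadjusted p below 0.05. The closest were the enoyl reductase Tecr at 0.35 (adjusted p = 0.0738, limma) and Hsd17b12 at 0.27 (adjusted p = 0.217).

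Of 8 stearoyl-CoA and other lipid desaturases outside the family, none passed limma in BAT, with 1 at an unadjusted p below 0.05. Fa2h, the fatty acid hydroxylase, stood at 0.15 (adjusted p = 0.0856, limma) and Fads6 at 0.06 (adjusted p = 0.267). Scd1, the main stearoyl-CoA desaturase of fat, had 10940 ± 996 in FXR BAT and 11050 ± 780 in control BAT (SD, n = 5 each), a difference of -0.02 (adjusted p = 0.919, limma). In WAT 1 of the 8 rose, the dihydroceramide desaturase Degs1, by 0.34 (adjusted p = 0.0250, limma), a call lost without control WAT 1, 2 or 4 or FXR WAT 1, under quantile normalization and with the trended fit. Scd1 stood at 0.04 there (adjusted p = 0.923, limma). Of 5 genes that supply electrons to desaturases, Cyb5b, a cytochrome b5, fell by 0.27 in BAT (adjusted p = 0.0387, limma) and rose by 0.49 in WAT (adjusted p = 0.0394), and the other 4 passed in neither tissue. The Cyb5b call in BAT was lost in 7 of 10 fits that left out 1 array (any control array, FXR BAT 2 or FXR BAT 5), without control BAT 2 and 4, and under quantile normalization. The call in WAT was lost in 7 of 8 such fits, all but the one without FXR WAT 3, and under quantile normalization.

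Of 10 genes of malonyl-CoA and palmitate supply and breakdown, 2 fell in BAT, with a list median of -0.34 against 0.01 over all genes. Acacb, the carboxylase at the mitochondrion, stood at -0.51 (adjusted p = 0.00422, limma) and Mlycd, which breaks malonyl-CoA down, at -0.34 (adjusted p = 0.0249). That count was 8 without FXR BAT 1, 2 and 4, 4 with centring, 1 without control BAT 4, FXR BAT 5 or control BAT 2 and 4, and 0 under quantile normalization. In WAT none passed limma (1 at an unadjusted p below 0.05), with the malic enzyme Me1 at 0.55 (adjusted p = 0.291) and Acacb at -0.34 (adjusted p = 0.448). Of 13 measured regulators of these enzymes, 7 fell in BAT and none rose, and the count was 3 without FXR BAT 1, 2 and 4 and 4 without control BAT 2 and 4. They included Nr1h3, encoding LXR alpha, at -0.59 (adjusted p = 0.000662, limma), the coactivator Ppargc1a at -0.78 (adjusted p = 0.00195), Srebf1 at -0.46 (adjusted p = 0.00226) and the coactivator Ppargc1b at -0.46 (adjusted p = 0.00592). Srebf1, the SREBP-1 gene, averaged 611 ± 67.6 in FXR BAT and 839 ± 65.4 in control BAT (SD, n = 5 each). In WAT, Srebf1 stood at -0.15 (adjusted p = 0.748, limma), and of the 13 only Pparg, the adipocyte receptor, fell, by 0.29 (adjusted p = 0.0435). That Pparg call was lost when any 1 of the 8 WAT arrays was left out.

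Of 17 measured thermogenic genes, 10 fell and 1 rose in FXR BAT. The list holds all 8 brown adipocyte markers described above, so 6 of these falls and the rise are the same calls. Ppargc1a is also counted among the regulators. The proton channel Otop1 stood at -0.77 (adjusted p = 0.000106, limma), the cytochrome oxidase subunits Cox7a1 at -0.43 (adjusted p = 0.000227) and Cox8b at -0.42 (adjusted p = 0.000601), and Dio2, the thyroid hormone deiodinase, at -2.15 (adjusted p = 0.000241). The Ucp1 difference was -0.48 (adjusted p = 0.00247, limma). In WAT 1 of the 17 was called, the brown fat factor Ebf2, at -0.32 (adjusted p = 0.0496, limma), and Dio2 stood at -0.03 (adjusted p = 0.772) and Ucp1 at 0.08 (adjusted p = 0.632), both dim. The Ebf2 call was lost when any 1 of the 8 WAT arrays was left out and under quantile normalization. The gene that rose in BAT was Lhx8, named after its values were seen, at 0.21 (adjusted p = 0.0330, limma), and leaving out control BAT 3 or 4 or FXR BAT 1, 3 or 5 ended that call. The Lhx8 call was also lost without control BAT 2 and 4, under quantile normalization, with centring and with the replicate block.

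The genes whose profile over the 18 arrays was most like that of Elovl3 were found by the root mean square difference of log2 levels after centring each gene. They were Dio2 and Gys2, the liver-type glycogen synthase, both at 0.53, then the bicarbonate transporter Slc4a4 at 0.69, the adenylyl cyclase Adcy3 at 0.71 and the acyl-CoA synthetase Acsl5 at 0.74. Gys2 differed by -1.67 in BAT and by 0.94 in WAT, where Elovl3 was dim. For Elovl6 the nearest were Cycs, encoding cytochrome c, at 0.42, then Atp5md, Letmd1 and Ndufb6 at 0.43 and Sucla2 at 0.45, 5 genes of mitochondria. Their differences in BAT were -0.24 to -0.48, and in WAT -0.02 to 0.13, against 0.91 for Elovl6. These likenesses carry no test.

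Within groups, after subtracting each group's mean, no pair of genes passed. Of 55 pairs, 45 among the members and 10 with Srebf1, 5 had an unadjusted p of r below 0.05 in a permutation test within groups (100000 draws) and 0 had an adjusted one. The pair Elovl7 and Fads1 had r = 0.75 (permutation p = 0.00650, adjusted p = 0.229) and rho = 0.66 (permutation p = 0.00798, adjusted p = 0.146) over 18 arrays. Elovl7 was dim on 7 of the 8 WAT arrays, and the one where it was not is FXR WAT 1, without which r was 0.53. It was also dim on 2 of the 5 control BAT arrays. In BAT alone r was 0.70 (adjusted permutation p = 0.434), and without the 2 arrays farthest from the median of Elovl7 it was 0.60. Elovl3 and Elovl6 had r = 0.45 (permutation p = 0.0158, adjusted p = 0.229) and rho = 0.53 (permutation p = 0.00769, adjusted p = 0.146). Elovl3 was dim on all 8 WAT arrays, so their part in that r is signal at background. In BAT alone r was 0.71 (adjusted permutation p = 0.434). Without FXR BAT 2 and 3, the 2 arrays farthest from the median of Elovl3, the r over the remaining arrays was 0.22.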

How the data were processed

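Total RNA of 10 BAT and 8 WAT samples was labelled with biotin for Affymetrix arrays, from 500 ng each, per the labels' protocols. Every probe set has a deposited intensity on a linear scale for every array. The sources used here do not say how the authors summarised and normalized these intensities. Among 34760 probe sets, the platform annotation gave 1 symbol for 21640, several for 1321 and none for 11799. For 954 genes with more than 1, the probe set with the highest mean log2 level was used, which left 19937 genes.

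Here log2(intensity + 1) was taken with no filter, and groups were compared with limma 3.58.1 (lmFit and eBayes, two-sided, R 4.3.3), with Benjamini-Hochberg adjustment over all genes and a threshold of 0.05. FXR and control were fitted within the 10 BAT and within the 8 WAT arrays, and control BAT and control WAT over 9 arrays. The fit was tested on simulated data. Other settings were leaving out each array, FXR BAT 1, 2 and 4, or control BAT 2 and 4; quantile normalization; centring; no pseudocount or 16; only genes above the median level; the mean of a gene's probe sets; a joint fit of 18 arrays; a trended robust eBayes; and the replicate number as a block. The number of arrays limits the precision, and p-values measure the spread between samples as labelled.

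The members and gene lists were chosen with earlier results of these data known. Named were the 10 members, up to 4 called genes per list and comparison with the smallest adjusted p (or 2 as values where none was called), Srebf1, Scd1, Ucp1 and Dio2, and for Elovl3 and Elovl6 the 5 most alike genes. Some listed genes were not analysed here. Promoters came from RefSeq (GRCm38.p6) for 8 of 10 members; Elovl3 and Fads1 were not matched. Python 3.11.15 with SciPy 1.17.1 gave the correlations.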

Additional observations from a re-analysis of the deposited data

Results flagged for a closer look

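Fads3 on control BAT 3 stood apart from its group, at 8.14 log2 units against 7.55 to 7.68 on the other 4 control BAT arrays. Its gap to the nearest array was 0.781 of the group's range, above Dixon's 95% critical value of 0.71 for 5 samples. In all, 40 sets of 1 gene in 1 group were checked this way and 1 passed, where chance gives about 1 in 20.

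Elovl6 differed in opposite directions between the tissues, by -0.52 log2 units in BAT and by 0.91 in WAT (FXR minus control), and Elovl5 by -0.28 in BAT and by 0.28 in WAT. For Elovl6 the arrays of the groups did not overlap in either tissue, and for Elovl5 they overlapped in both. Neither WAT difference passed (adjusted p = 0.117 for Elovl6 and 0.280 for Elovl5, limma), and the BAT differences carry no test. The Elovl6 difference in BAT was -0.28 after quantile normalization. The difference between the tissues was not tested for either gene.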

How the results depend on the processing

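The Elovl3 difference in BAT ran from -2.78 to -2.27 with 1 array left out and was -3.26 without FXR BAT 1, 2 and 4. The 1 member called in WAT, Fads3, became 0 to 1 with 1 array left out (0 without control WAT 1, control WAT 2, FXR WAT 1 or FXR WAT 2), and the replicate numbers as a block gave 0 (adjusted p of Fads3 0.0631, limma). Replicate numbers gave no clear pairing of FXR and control samples. Same-numbered deviations matched best only for replicate 5 in BAT and replicates 1 and 2 in WAT. Their correlations were -0.493 to 0.276 in BAT and 0.009 to 0.157 in WAT. Between control BAT and control WAT they were -0.083 to 0.256, with the same number as best match for 3 of 4, a hint from the data and not the design. With the block, all genes gave 2741 calls in BAT and 237 in WAT, against 3142 and 265 without it. In the tissue comparison Elovl1, Elovl2 and Fads2 reversed to -0.98, -0.26 and -0.83 under quantile normalization, and Elovl1, Elovl2, Elovl7 and Fads2 to -0.43, -0.48, -0.21 and -0.35 with centring, which removes the shift of the median gene. Fads1 did not pass without control BAT 2 and 4 (-0.23, adjusted p = 0.150, limma). Over all genes, centring gave 4852 calls in BAT (776 higher and 4076 lower, against 1398 and 1744 as deposited), leaving out FXR BAT 1, 2 and 4 gave 1913 and leaving out control BAT 2 and 4 gave 1416. In WAT the joint fit gave 411 calls and leaving out 1 array 49 to 336. Values for single genes, lists and all genes were counted once per setting, many of those above included. The Elovl3 difference in BAT and the counts of members and pairs were left aside. Of these values, 107 counts and untested differences moved, 12 tested differences lost a call, 1 gained one and 7 reversed, while 1001 values were counted as unchanged. The cause of these moves was not tested. Co-variation had 0 adjusted calls in each setting, among them one without FXR WAT 1 that was added after seeing the data. Dim signal limits Elovl2, Elovl3, Elovl4 and Elovl7 in WAT, and Elovl2 and Elovl7 in BAT, where Elovl4 was near the dim limit.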

Other observations

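Genes that use very long and polyunsaturated chains were also lower in FXR BAT in part. Of 14 measured, 5 fell and 1 rose, where 8.75% of all genes were called lower and 7.01% higher. Agpat3, an acyltransferase that places polyunsaturated chains in phospholipids, stood at -0.72 log2 units (adjusted p = 2.89e-05, limma), the peroxisomal transporter Abcd3 at -0.61 (adjusted p = 0.00425) and Acsl4, which activates arachidonate, at -0.29 (adjusted p = 0.00730). The ceramide synthase Cers6 rose by 0.16 (adjusted p = 0.0212, limma). Without FXR BAT 1, 2 and 4, 3 were called lower and 0 higher, and without control BAT 2 or control BAT 4 the count of falls was also 3. Without control BAT 3, 0 were called higher. The Cers6 call was also lost without control BAT 2 and 4, under quantile normalization, with centring, in the joint fit and with the replicate block. In WAT none of the 14 passed limma, with 6 at an unadjusted p below 0.05, and Abcd3 stood at 0.14 (adjusted p = 0.262) and Hsd17b4, an enzyme of peroxisomal oxidation, at 0.15 (adjusted p = 0.269).

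Scd2, a stearoyl-CoA desaturase chosen after its values were seen, averaged 999 ± 378 in FXR WAT and 367 ± 152 in control WAT (SD, n = 4 each). The arrays did not overlap, and its difference of 1.47 ± 0.35 log2 units did not pass (adjusted p = 0.0920, limma).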
